A study of Mus musculus with 6 samples.

Results

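Lysosomal enzymes and membrane proteins were followed by their messenger RNA in the lungs of mice of the outbred strain CD1. The set has 41 genes of known place or task in the lysosome, listed by symbol with earlier results of these data known. Of these, 40 were measured among 22180 genes in all. Glb1, which encodes beta-galactosidase, was not analysed here because its 1 probe set carried several symbols. The mice were 10 weeks old. The 3 intact mice are called sham in the design, and the 3 preconditioned mice had been ventilated mechanically at low pressures for 90 minutes 1 week before the lung was sampled. What the sham procedure consisted of is not stated in the sources used here. Every mouse gave 100 ng of total RNA and 1 whole-transcript array, and the labels call the mice of a group biological replicates, so each spread below is between animals. Levels are on the log2 scale, where a step of 1 is a doubling, and levels of different genes are not compared, since probe sets bind with different strength.

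Lysosomes are acidic compartments in which proteins, glycans, lipids and nucleic acids are broken down by hydrolases. Transporters in the limiting membrane carry the products back to the cytosol, heavily glycosylated membrane proteins line the inner face, and a proton pump keeps the lumen acidic. In the lung they are abundant in alveolar macrophages, which clear particles and used surfactant, and in alveolar type 2 cells, whose lamellar bodies are lysosome-related organelles that store surfactant. Many lysosomal genes are known targets of TFEB, a transcription factor that enters the nucleus when the kinase complex mTORC1 is inactive and that binds a palindromic promoter element.

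The arrays correlated between 0.978 and 0.993 across genes, and 39 of the 40 members had a mean level above 5.948, the median of all genes. Markers of the tissue were well above that median too: the summaries for alveolar type 1, alveolar type 2 and endothelial cells had 0 of 5, 0 of 10 and 0 of 10 measured markers under it. The upper quartile of all probe sets lay between 6.97 and 7.03 in intact and between 6.94 and 6.95 in preconditioned arrays. The medians went the other way, between 5.32 and 5.37 in intact and between 5.39 and 5.40 in preconditioned arrays. The shape of the distribution therefore differed slightly between the groups. In bulk tissue, fewer cells of a type and less RNA per cell cannot be told apart, and this holds for every value that follows.

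Most lysosomal genes were at a lower level in preconditioned than in intact lungs, but few passed the test over all genes. Plbd1, a phospholipase B-like protein, and Ctns, the cystine transporter, fell and passed an adjusted p of 0.05 in limma with Benjamini-Hochberg adjustment over all genes. These are 2 of 40 members (5%), against 0.0586% of all genes called lower and 0.0992% of the genes above the median level. No member was called higher (0.0361% of all genes and 0.0631% of those above the median level), and 0 were higher at an unadjusted p under 0.05 (7.53% and 5.5%). The difference was below 0 for 39 of 40 members, against 47.3% of all genes, 64.6% of the genes above the median level and 71.4% of the 4635 genes whose mean level lay between the quartiles of the members, 7.45 and 9.42. The median over the members was -0.29, against 0.01 over all genes and -0.09 over the genes above the median level.

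At an unadjusted p under 0.05, 22 of 40 members (55%) were lower. The same share was 11.6% of all genes, 20.1% of the genes above the median level and 24.5% of the genes between the quartiles. For 19 members (47.5%) every preconditioned array lay below every intact array, against 13% of all genes, 22.2% of the genes above the median level and 26.9% of those between the quartiles. In the other direction there were 0 members without overlap (11.7% of all genes and 7.58% of those above the median level). The members were chosen with earlier results of these data known. These shares therefore describe the list beside the other genes and are not a test of it.

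**Figure D1:**
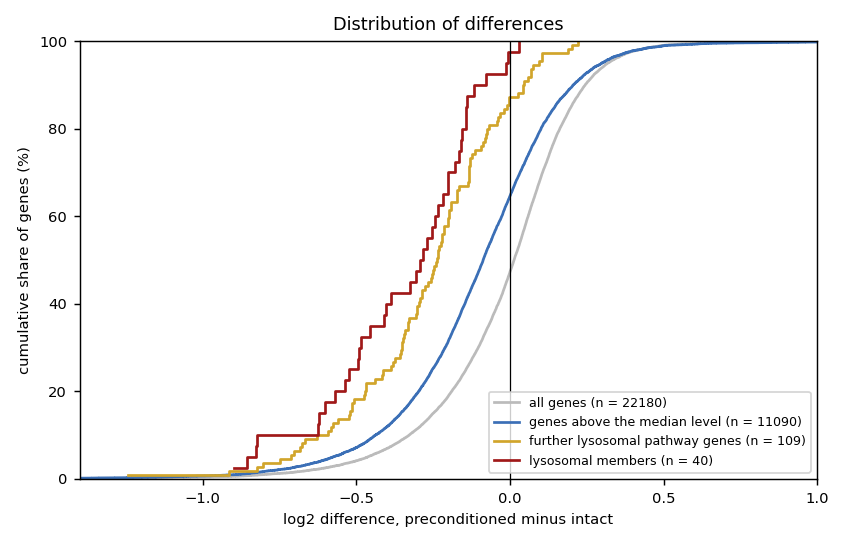
Cumulative share of genes (y axis, percent) at or below each log2 difference, preconditioned minus intact (x axis), for all genes, genes above the median level, 109 further genes of the lysosomal pathway and the 40 lysosomal members. At 0 the curve of the members stands at 97.5% and that of the genes above the median level at 64.6%, while the other curves reach further down, since the lowest member is at -0.90 and the lowest further pathway gene at -1.24.

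The 2 phospholipase B-like proteins are soluble glycoproteins of the lumen. Plbd1 was at 8.74, 8.81 and 8.94 in intact replicates 1, 2 and 3 and at 7.997, 7.94 and 8.08 in the preconditioned ones. The groups lay apart, and the gap between them was wider than the range within either. The mean fell from 8.83 ± 0.10 in intact to 8.01 ± 0.07 in preconditioned lungs (SD, n = 3), which is 1.77-fold lower (difference -0.82, SE 0.10, limma adjusted p = 0.0399). Its paralog Plbd2 was at 7.18, 7.42 and 7.65 in intact and at 7.04, 6.84 and 6.91 in preconditioned lungs. All preconditioned values were below the intact ones, but intact replicate 1 lay close to preconditioned replicate 1, and the difference of -0.49 (SE 0.13) did not pass (limma adjusted p = 0.120).

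Of the membrane transporters and channels, Ctns fell and 3 of the 4 (75%) were lower at an unadjusted p under 0.05. The same share was 11.6% of all genes and 20.1% of those above the median level. Ctns exports cystine, a product of protein breakdown, from the lumen, and its loss causes cystinosis. The intact lungs had 7.51, 7.62 and 7.74 and the preconditioned lungs 6.88, 6.59 and 6.71. No values overlapped. Mean Ctns fell from 7.62 ± 0.11 in intact to 6.73 ± 0.15 in preconditioned lungs (SD, n = 3), which is 1.86-fold lower (difference -0.90, SE 0.11, limma adjusted p = 0.0416).

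Npc1, the membrane protein that hands cholesterol out of the lysosome, was at 8.50, 8.98 and 9.06 in intact and at 8.11, 7.79 and 8.08 in preconditioned lungs. Intact replicate 1 lay nearer to the preconditioned values than to the other intact mice. The difference was -0.86 (SE 0.16, limma adjusted p = 0.0848), and a second, dimmer probe set of Npc1 gave -0.04. Cln3, a membrane protein lost in juvenile Batten disease, was at -0.27 with groups that did not overlap, and the calcium channel gene Mcoln1 at -0.16 with overlapping ones.

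Among the other membrane proteins, no gene passed over all genes. Without overlap were 3 of 4, against 13% of all genes and 22.2% of those above the median level. Lamp2, a main glycoprotein of the limiting membrane that also serves as receptor in chaperone-mediated autophagy, was at 9.73, 10.02 and 9.94 in intact and at 9.42, 9.26 and 9.44 in preconditioned lungs. Each group was tight and the difference was -0.52 (SE 0.11, limma adjusted p = 0.0860). Lamp1, its close relative, differed less, with 11.14 ± 0.05 in intact and 10.93 ± 0.05 in preconditioned lungs (SD, n = 3) and a difference of -0.22 (SE 0.09, limma adjusted p = 0.223). Whether Lamp1 and Lamp2 differed from each other in their response was not tested.

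Laptm5 is a lysosomal membrane protein of blood cells that takes part in the turnover of antigen receptors. It was at 7.82, 8.01 and 8.18 in intact and at 7.45, 7.12 and 7.64 in preconditioned lungs, so that the groups stayed apart (-0.60, SE 0.15, limma adjusted p = 0.111). Scarb2, which escorts glucocerebrosidase to the lysosome, was at -0.01 (95% confidence interval from -0.33 to 0.31).

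**Figure D2:**
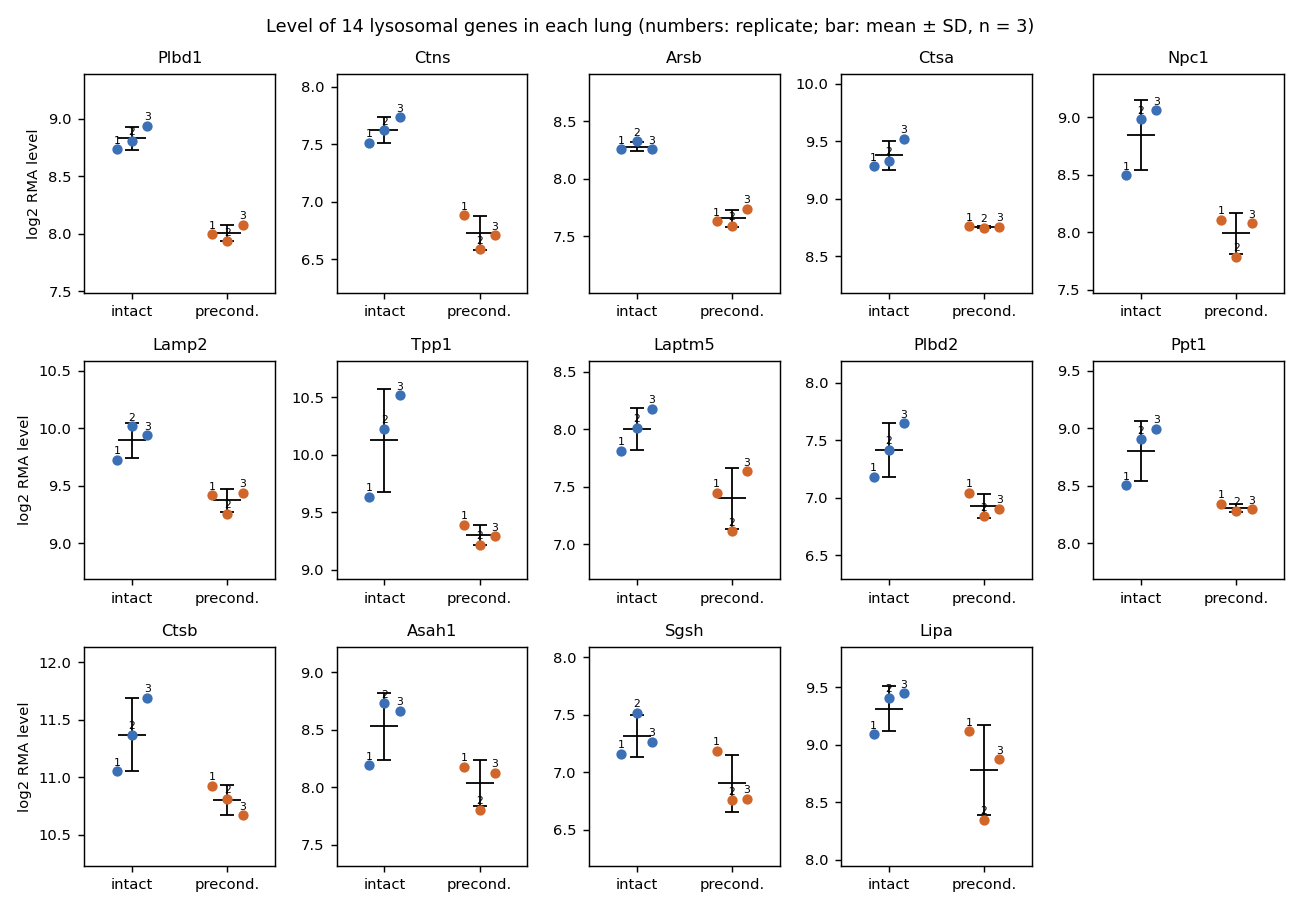
Level (y axis, log2 RMA) of the 14 members with the lowest p in each of the 6 lungs, as points numbered by replicate, with the mean and SD of the 3 lungs of a group as bars; each panel spans the same number of log2 units. For Plbd1 and Ctns the gap between the groups is wider than the range within either, whereas in Sgsh and Lipa preconditioned replicate 1 lies above intact replicate 1.

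All 9 lysosomal proteases had a lower mean in preconditioned lungs, with a median difference of -0.29 and none past the threshold over all genes. At an unadjusted p under 0.05, 5 of them (55.6%) were lower, against 11.6% of all genes and 20.1% of those above the median level. Ctsa, a carboxypeptidase that also protects beta-galactosidase and neuraminidase, was at 9.28, 9.33 and 9.52 in intact and at 8.76, 8.75 and 8.76 in preconditioned lungs. The preconditioned values were nearly the same in the 3 mice and below all intact ones (-0.62, SE 0.10, limma adjusted p = 0.0556). Tpp1, a tripeptidyl peptidase lost in late infantile Batten disease, was at 9.63, 10.22 and 10.52 in intact and at 9.39, 9.22 and 9.29 in preconditioned lungs. Here intact mice spread widely and preconditioned mice did not (SD 0.45 and 0.09, n = 3), and the difference was -0.83 (SE 0.20, limma adjusted p = 0.105).

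Ctsb, a cysteine protease found in most cells, was at 11.05, 11.37 and 11.69 in intact and at 10.93, 10.81 and 10.67 in preconditioned lungs. Those groups did not overlap, though intact replicate 1 and preconditioned replicate 1 lay close (-0.57, SE 0.16, limma adjusted p = 0.131). Ctsc, which activates serine proteases of neutrophils and lymphocytes, was at -0.45 with overlap, and Ctsd, the main aspartic protease, at -0.29 without. Ctss, the protease of antigen-presenting cells, was at -0.24, Ctsl at -0.18, Ctsk at -0.17 and Ctsz at -0.14, all with overlapping groups. Ctsk was the one member under the median level of all genes, with 5.69 ± 0.36 in intact and 5.53 ± 0.39 in preconditioned lungs (SD, n = 3).

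Of the 6 genes of lipid degradation, 4 (66.7%) were lower at an unadjusted p under 0.05. The same share was 11.6% of all genes and 20.1% of those above the median level. Ppt1, which removes palmitate from proteins, was at 8.51, 8.90 and 8.99 in intact and at 8.34, 8.28 and 8.30 in preconditioned lungs. Again the preconditioned lungs were alike and intact replicate 1 was the nearest intact lung to them (-0.49, SE 0.13, limma adjusted p = 0.120). Asah1, the acid ceramidase, was at 8.19, 8.73 and 8.66 in intact and at 8.18, 7.80 and 8.13 in preconditioned lungs. Its groups were only just apart, at intact replicate 1 and preconditioned replicate 1 (-0.49, SE 0.17, limma adjusted p = 0.176).

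Lipa, the acid lipase of cholesteryl esters and triglycerides, was at 9.09, 9.41 and 9.45 in intact and at 9.12, 8.35 and 8.87 in preconditioned lungs, and its groups overlapped (-0.54, SE 0.20, limma adjusted p = 0.197). Smpd1, the acid sphingomyelinase, was at -0.28 without overlap, and its second probe set gave -0.30. Psap, the precursor of the sphingolipid activator proteins, was at -0.14. Npc2, the soluble partner of Npc1 in cholesterol export, was at 11.04 ± 0.15 in intact and 11.03 ± 0.04 in preconditioned lungs (SD, n = 3), a difference of -0.01 (95% confidence interval from -0.24 to 0.23). The 2 cholesterol export genes therefore had values of -0.86 and -0.01, a contrast that was not tested.

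Degradation of glycosaminoglycans, the sugar chains of the matrix and cell surface, was represented by 6 genes with a median of -0.35. At an unadjusted p under 0.05, 3 of them (50%) were lower, against 11.6% of all genes and 20.1% of those above the median level. Arsb, a sulfatase of dermatan and chondroitin sulfate, was at 8.26, 8.33 and 8.26 in intact and at 7.63, 7.59 and 7.74 in preconditioned lungs. Both groups were tight and far apart, and the difference of -0.63 (SE 0.09) just missed the threshold (limma adjusted p = 0.0556). A second, dimmer probe set of Arsb gave -0.22. Sgsh, the heparan sulfamidase, was at 7.16, 7.52 and 7.27 in intact and at 7.19, 6.76 and 6.77 in preconditioned lungs, with preconditioned replicate 1 inside the intact range (-0.41, SE 0.15, limma adjusted p = 0.194). Idua, the iduronidase, was at -0.39 without overlap, and Ids (-0.31), Naglu (-0.23) and Gusb (-0.20) had overlapping groups.

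The glycosidases of glycoproteins, glycolipids and glycogen showed smaller differences, with a median of -0.16 over 7 measured genes. At an unadjusted p under 0.05, 1 of them (14.3%) was lower, against 11.6% of all genes and 20.1% of those above the median level. That gene was Gaa, the acid alpha-glucosidase of glycogen, with a difference of -0.25 and no overlap. Man2b1 was at -0.33, Hexa at -0.20, Gla at -0.16, Manba at -0.14 and Fuca1 at -0.12, and of these 5 only the groups of Gla did not overlap. Neu1, the sialidase that works in a complex with Ctsa, was at 7.38 ± 0.27 in intact and 7.41 ± 0.22 in preconditioned lungs (SD, n = 3) and at 0.03 was the single member with a difference above 0.

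Grn, the precursor of granulins needed for lysosome function in macrophages and neurons, was at -0.40 with overlapping groups. Tfeb itself was at 5.99 ± 0.10 in intact and 5.92 ± 0.08 in preconditioned lungs (SD, n = 3), a difference of -0.08 (95% confidence interval from -0.30 to 0.14). Its mean level, 5.955, was only just above the median of all genes. These arrays measure its RNA and not the share of the protein in the nucleus.

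**Figure D3:**
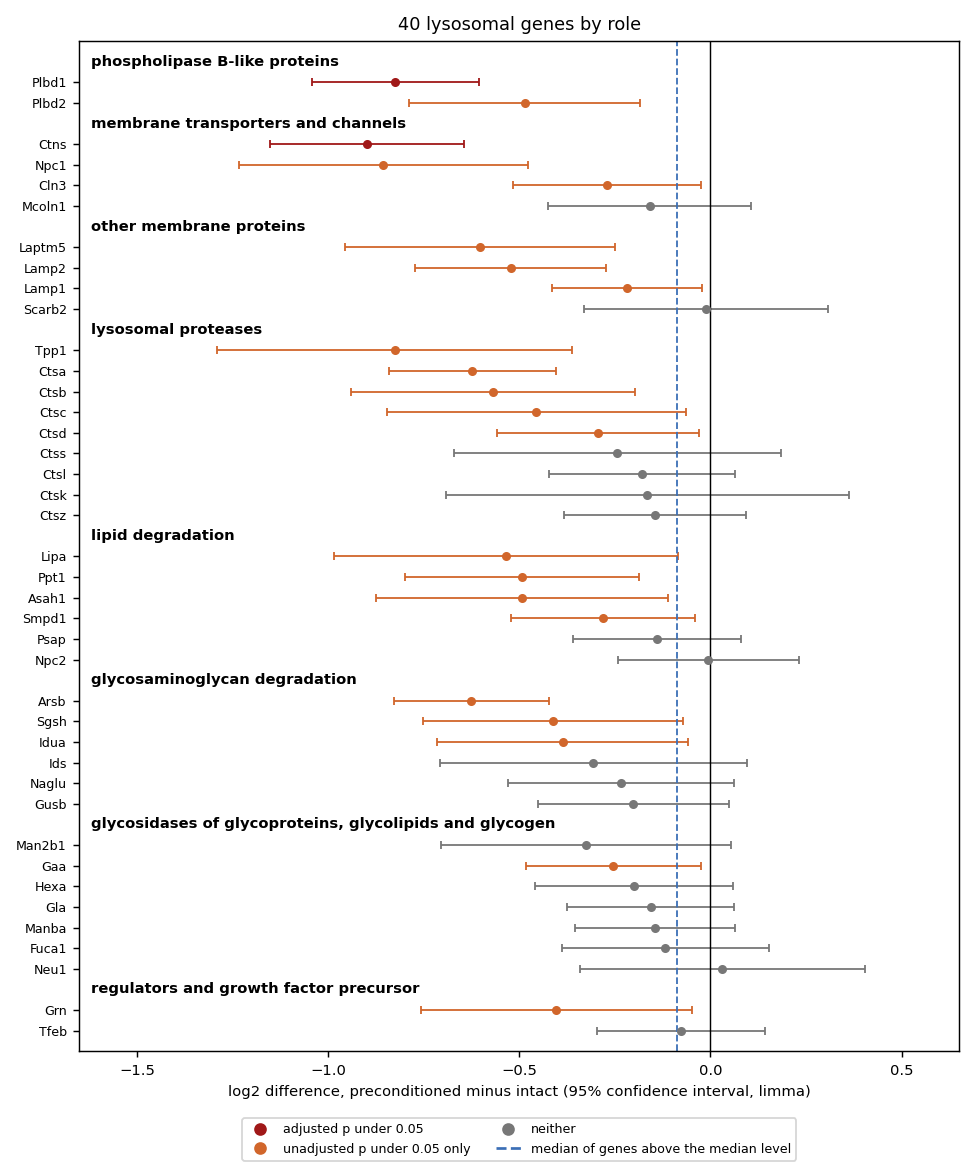
Log2 difference, preconditioned minus intact (x axis), of the 40 measured members with its 95% confidence interval from limma, grouped by role; colours mark members past an adjusted p of 0.05, past an unadjusted p of 0.05 only, or neither, and the dashed line is the median of the genes above the median level (-0.09). Plbd1 and Ctns are the called members, and Neu1, Scarb2 and Npc2 lie at 0.03, -0.01 and -0.01.

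Promoters of the members were read in the RefSeq table of the mouse assembly GRCm38.p6, 250 bases before to 50 after each annotated start, because the element known for TFEB has a core, CACGTG, that can be looked for by letters. The 3 motifs searched were CACGTG, TCACGTGA and the full CLEAR palindrome, which adds a G before and a C after TCACGTGA. Each lies inside the next and reads the same on both strands. Of the 40 measured members, 36 had a promoter in the table, and Asah1, Ctsb, Npc1 and Plbd2 had none. The core was present for 11 of 36 members (30.6%), against 8.09% of the 27025 genes and 7.15% of the 32851 windows in the table. TCACGTGA was present for 5 members (13.9%, against 1.12% of the genes) and the full palindrome for 1 (2.78%, against 0.370%).

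The sites of TCACGTGA or longer are shown, in the direction of the gene, since they hold the longer motifs searched, with the longest motif in capitals. Sites with the core alone were not ranked by the bases beside it. Positions are those of the first base in capitals, counted from the annotated start, with bases before it negative. The Cln3 motif begins at -123 (chr7:126583340-126583369, minus strand). Those of Ctsa begin at -13 and 5 in the second of its windows (chr2:164833749-164833778 and chr2:164833766-164833795, plus strand). The Ctsd motif begins at -99 (chr7:142387908-142387937, minus strand) and that of Mcoln1 at -46 (chr8:3500462-3500491, plus strand). Gla has a pair, at -228 and -195 (chrX:134601215-134601244 and chrX:134601182-134601211, minus strand).
Cln3: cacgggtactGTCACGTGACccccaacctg
Ctsa, first: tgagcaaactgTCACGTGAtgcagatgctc
Ctsa, second: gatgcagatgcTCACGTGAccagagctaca
Ctsd: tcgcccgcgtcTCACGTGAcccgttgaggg
Mcoln1: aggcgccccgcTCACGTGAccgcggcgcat
Gla, first: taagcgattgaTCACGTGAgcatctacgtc
Gla, second: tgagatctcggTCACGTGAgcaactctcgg

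Lamp1 has 4 copies of the core close together, and they are shown as the densest group among the members (chr8:13159088-13159160, plus strand, up to the annotated start, core in capitals).
Lamp1: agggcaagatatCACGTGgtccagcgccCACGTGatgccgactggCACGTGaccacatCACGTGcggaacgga

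The called genes are shown for comparison. Plbd1 has a single core, at 44 (chr6:136661844-136661873, minus strand), and the 250 bases before the start have none (chr6:136661894-136662143). Ctns has none in either of its windows, and the 250 bases before its most upstream start are given (chr11:73199043-73199292, minus strand).
Plbd1, core: gggcgaaggttggttcccaaggcCACGTGa
Plbd1, upstream: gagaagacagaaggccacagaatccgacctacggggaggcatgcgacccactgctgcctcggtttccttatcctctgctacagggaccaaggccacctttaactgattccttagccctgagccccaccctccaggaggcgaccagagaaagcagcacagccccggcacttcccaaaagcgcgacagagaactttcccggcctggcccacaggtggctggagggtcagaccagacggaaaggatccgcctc
Ctns, upstream: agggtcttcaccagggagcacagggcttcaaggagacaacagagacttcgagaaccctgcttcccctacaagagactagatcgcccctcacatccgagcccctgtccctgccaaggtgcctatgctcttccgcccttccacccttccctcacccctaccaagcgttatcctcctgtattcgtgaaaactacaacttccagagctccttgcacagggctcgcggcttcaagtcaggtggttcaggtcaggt

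The 11 members with the core had a median of -0.25 and the 25 without it -0.28. Among all measured genes with a promoter, the medians were -0.02 for the 1561 with the core and 0.01 for the others. Of the members with TCACGTGA, Ctsa was at -0.62, Ctsd at -0.29, Cln3 at -0.27, Mcoln1 at -0.16 and Gla at -0.16. Ctns, at -0.90 the lowest of all members, and Arsb and Tpp1, at -0.63 and -0.83, had no core in their windows.

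The other genes of the pathway were taken from 5 lists of 122 symbols, some of them alternative names of 1 gene, and 109 were measured. Of these, 1 was called lower and 0 higher, 48 were lower and 0 higher at an unadjusted p under 0.05, and the median difference was -0.24. The 48 genes are 44.0% of the list, against 11.6% of all genes and 20.1% of those above the median level. Among the 25 further hydrolases and activators, 16 (64%) were lower at an unadjusted p under 0.05, with a median of -0.36. Hyal2, a hyaluronidase found on the cell surface as well as in lysosomes, fell by 0.82 on the log2 scale (limma adjusted p = 0.0399). The lysosomal acid phosphatase gene Acp2 was at -0.75, the dipeptidyl peptidase gene Dpp7 at -0.52 and Glmp at -0.67 (limma adjusted p from 0.0556 to 0.0849). The mean level of Dpp7, 5.76, was under the median of all genes.

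Further membrane proteins had a median of -0.23 over 26 genes, with 12 (46.2%) lower at an unadjusted p under 0.05. Cd68, a glycoprotein of macrophage lysosomes, was at -1.24, Laptm4b at -0.71 and the nucleoside transporter gene Slc29a3 at -0.51 (limma adjusted p from 0.0839 to 0.0965). Of 18 subunits and accessory proteins of the proton pump, 7 (38.9%) were lower at that p, with a median of -0.27, and the accessory genes Atp6ap1 and Atp6ap2 were at -0.59 and -0.41 and Atp6v0e at -0.68. Genes that sort enzymes to lysosomes had a median of -0.19 over 22 genes, 7 of them (31.8%) lower at that p, with the retromer genes Vps35 at -0.52 and Vps26a at -0.31 and the adaptor gene Ap1b1 at -0.35. Regulators of lysosome genes and the mTORC1 docking complex had a median of -0.17 over 18 genes, 6 (33.3%) lower at that p. Tfec, a relative of Tfeb made in macrophages, was at -0.68 (limma adjusted p = 0.0556). Zkscan3, described as a repressor of lysosome genes, was at -0.70 and the Rag GTPase gene Rragb at -0.38. The mean levels of Tfec and Rragb, 5.63 and 4.05, were under the median of all genes.

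The mice of a group were not alike. The mean deviation of the 40 members from their average over the arrays was 0.01, 0.23 and 0.29 in intact replicates 1, 2 and 3 and -0.07, -0.27 and -0.19 in the preconditioned ones. The groups lay apart, with intact replicate 1 and preconditioned replicate 1 nearest to each other. Intact replicate 1 was the lowest intact lung for 33 of 40 members, and preconditioned replicate 1 was the highest preconditioned lung for 28. Set against the mean of the intact lungs, the median over the members was -0.21, -0.36 and -0.37 in preconditioned replicates 1, 2 and 3, with 31, 40 and 39 of 40 members below 0. For genes above the median level the same medians were -0.08, -0.12 and -0.07.

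The calls did not survive the loss of most single arrays. With limma, Plbd1 lost its call when intact replicate 2 (adjusted p = 0.204) or 3 (0.187) was left out, and likewise preconditioned replicate 1 (0.0741), 2 (0.113) or 3 (0.1995). Ctns lost it without the same arrays (adjusted p = 0.211 and 0.187, then 0.0634, 0.113 and 0.215). Neither log2 difference moved far, from -0.86 to -0.77 for Plbd1 and from -0.98 to -0.83 for Ctns in these fits. The genes called in all also fell in these fits, from 21 to 2, 3, 4, 3 and 2 in the same order of arrays. When intact replicate 1 was left out, 13 members were called lower, among 1228 genes called in all.

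The 22 members lower at an unadjusted p under 0.05 became 12 without intact replicate 2, 12 without intact replicate 3, and 14 when preconditioned replicate 2 or 3 was left out. The shares among genes above the median level were then 12.9%, 12.6%, 16.2% and 16.6%. The 19 members without overlap became 29 when intact replicate 1 was dropped and 32 when preconditioned replicate 1 was, and the share of all genes rose from 13% to 23.1% and 18.8%. At an unadjusted p under 0.05, 11 members were lower in all 6 fits that left out 1 array (Arsb, Ctns, Ctsa, Ctsb, Lamp2, Laptm5, Npc1, Plbd1, Plbd2, Ppt1 and Tpp1), against 5.85% of all genes and 10.3% of those above the median level. Scaling moved the counts and the members near 0. After quantile normalization again, 15 members were lower at an unadjusted p under 0.05 (14.1% of genes above the median level) and 15 were without overlap, and after cyclic loess 15 (14.2%) and 14. After quantile normalization again or cyclic loess, 37 members were below 0, with Neu1, Npc2 and Scarb2 above, and after median centring all 40 were. In these settings the median over the genes above the median level was -0.02, -0.02 and -0.14. The share of all genes lower and higher at an unadjusted p under 0.05 moved to 15.0% and 4.63% after median centring. There 22 members were lower, 0 were higher and 23 were without overlap (17.0% of all genes).

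**Figure D4:**
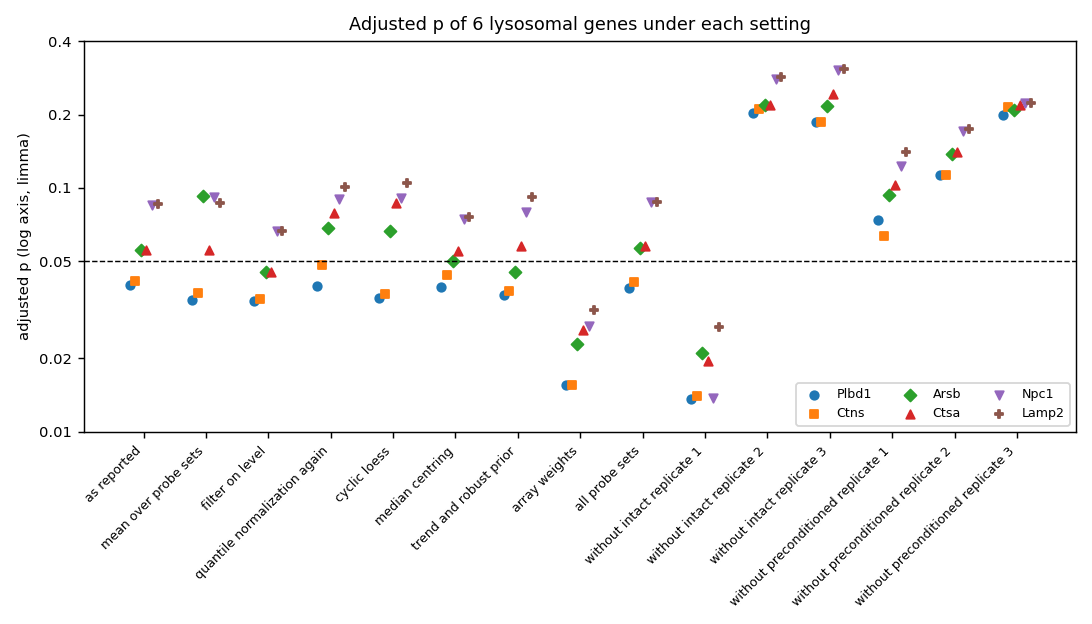
Adjusted p from limma (y axis, log scale) of the 6 members with the lowest p in the fit as reported and in alternatives (x axis), with a dashed line at 0.05. Plbd1 and Ctns lie under the line in the fit as reported, and above it when any array other than intact replicate 1 is left out. The fit with the replicate number as a block, where both had a limma adjusted p of 0.180, is not plotted.

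All lists of cell markers had medians below 0 too, with 0 markers called. Of the genes above the median level, 64.6% were below 0 and 20.1% were lower at an unadjusted p under 0.05. Of all genes these shares were 47.3% and 11.6%, and they stand beside the marker counts here and below. Alveolar macrophage markers had a difference below 0 for 12 of 12 measured genes and a median of -0.39, with 0 called and 5 lower at an unadjusted p under 0.05. Their mean level ran from 7.14 to 7.69 in intact and from 6.94 to 6.98 in preconditioned lungs, and 1 of the 12 was under the median level of all genes. Chil3, a secreted chitinase-like protein of these cells, was at -1.25, the scavenger receptor gene Olr1 at -0.81 and Krt79 at -0.73. Monocyte and interstitial macrophage markers were below 0 for 14 of 14, with a median of -0.44, 8 lower at an unadjusted p under 0.05, and mean levels from 7.61 to 7.995 in intact and from 7.14 to 7.34 in preconditioned lungs. Within that list Ly6c2 was at -1.63, the integrin gene Itgam at -0.96 and Ccr2, the receptor that recruits monocytes, at -0.57, and 1 of the 14 was under the median level. The part of these cells in the lysosomal values was not tested.

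Neutrophil markers were below 0 for 11 of 12 with a median of -0.79. Their mean level, from 5.47 to 6.81 in intact and from 5.18 to 5.38 in preconditioned lungs, was highest in intact replicate 3, and 8 of the 12 lay under the median level. The mean deviation of that list was 1.19 in intact replicate 3 against -0.16 and 0.04 in the other intact mice. Without that array the median over the lysosomal members was -0.21, against -0.29 with it. Csf3r was at -1.47, S100a9 at -1.18 and Retnlg at -1.80, and Ltf, at 0.86, was the neutrophil marker above 0. The mean level of Retnlg, 4.89, was under the median of all genes.

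Alveolar type 2 markers had a median of -0.28 over 10 genes, 8 of them below 0, and mean levels that overlapped, from 10.83 to 11.31 in intact and from 10.70 to 11.05 in preconditioned lungs. Cxcl15 was at -0.63, the surfactant protein gene Sftpb at -0.49 and the phosphate transporter gene Slc34a2 at -0.51. The type 2 markers above 0 were Lpcat1 at 0.16 and Etv5 at 0.09. Markers of the mesothelium, which covers the lung, were below 0 for 8 of 8, with a median of -0.88 and mean levels from 7.79 to 8.25 and from 6.77 to 7.52, with Upk3b at -1.56, Gpm6a at -1.35 and Bnc1 at -0.72. For T and NK cells the median was -0.45 over 11 markers, 10 of them below 0 and 4 under the median level. Gzma was at -1.32, Ncr1 at -0.82 and Prf1 at -0.78, while Cd3g, Cd3e and Cd3d were at -0.85, -0.42 and 0.14. Endothelial markers had -0.23 over 10, 9 of them below 0, with Ptprb and Cdh5 at -0.39 and Vwf at -0.29. The endothelial mean levels overlapped, from 9.98 to 10.23 in intact and from 9.60 to 10.00 in preconditioned lungs. Alveolar type 1 markers had -0.30 over 5, 4 of them below 0, with Rtkn2 at -0.34, Aqp5 at -0.30, Pdpn at -0.20 and Hopx at 0.05. The type 1 mean levels overlapped, from 9.70 to 10.04 in intact and from 9.49 to 9.80 in preconditioned lungs. The part of any of these cell types in the lysosomal values was not tested.

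The B cell, smooth muscle and dendritic cell lists had medians nearer to 0. B cell markers had a median of -0.02 over 5 genes (Pax5 0.33, Ms4a1 -0.14, Cd79a -0.35), smooth muscle markers -0.07 over 5 (Des -0.34, Cnn1 -0.52, Tagln 0.15) and dendritic cell markers -0.13 over 6 (Cd209a 0.73, Xcr1 -0.13, Flt3 -0.18). Of the red blood cell list 1 gene was measured, Slc4a1 at -0.67.

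**Figure D5:**
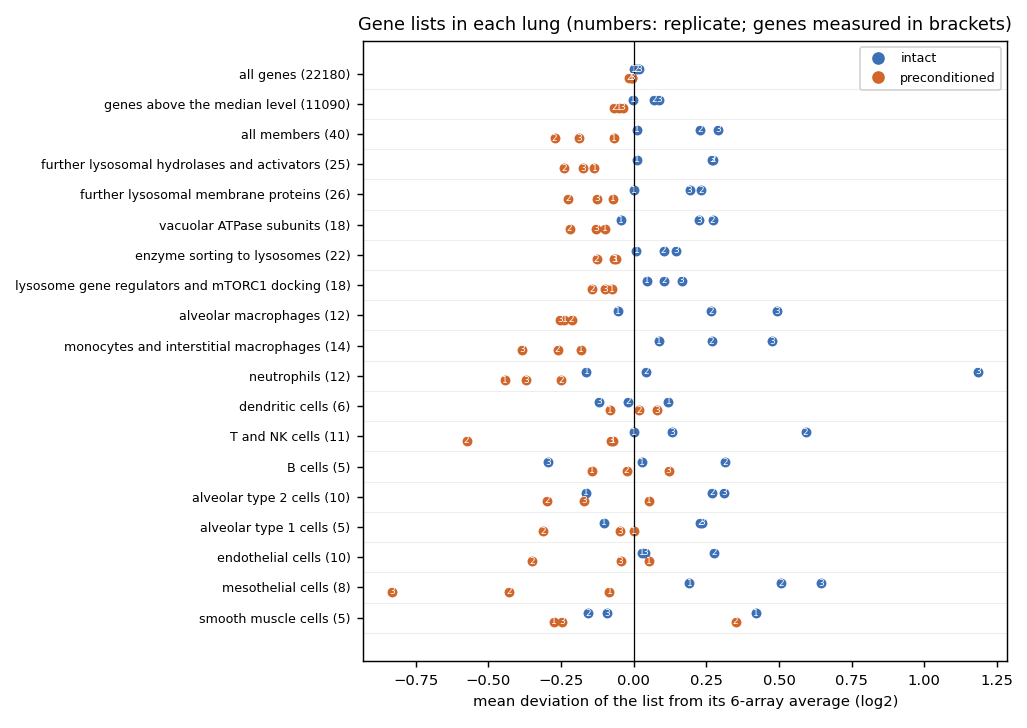
Mean deviation of each gene list from its average over the 6 arrays (x axis, log2), as points numbered by replicate in blue for intact and orange for preconditioned lungs, with the number of measured genes in brackets. For the lysosomal members intact replicate 1 lies at 0.01 and the other intact lungs at 0.23 and 0.29, and the neutrophil markers have intact replicate 3 alone at 1.19.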

How the data were processed

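Per the submitters' processing notes, the authors used RMA and limma, and the deposited table holds RMA values as log2 per probe set. RMA subtracts background, makes the arrays' distributions alike and summarizes probes, so a shift common to nearly all genes is largely removed. The deposited distributions were not identical, since neither the medians nor the upper quartiles of all probe sets overlapped between the groups. No versions, filters or genome build are stated there, and precision is limited by having 6 arrays. Of 41345 probe sets, 23521 carried 1 symbol in the platform annotation, 1814 several and 16010 were not listed. A gene with several probe sets was read from the one with the highest mean.

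All 22180 genes were fitted with limma 3.58.1 in R 4.3.3 (lmFit and eBayes, no covariate, no filter), preconditioned minus intact, with Benjamini-Hochberg adjustment. The script was tested on artificial data first. Alternatives were another probe set rule, a level filter, renormalization, blocking on the replicate number, array weights, another prior, and leaving out each array. Described in full were the called members and the 12 next by p, and the others by difference. In other lists, called genes and up to 3 more by p were named, with the Cd3 genes, Hopx, Lpcat1, Etv5 and Ltf added. The members and lists were chosen with earlier results of these data known. Figures used matplotlib 3.10.9.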

Additional observations from a re-analysis of the deposited data

How the results depend on the processing

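The 2 members called lower became 4 among genes above the median level, 11 with array weights, 6 at an adjusted p under 0.1, 0 with the replicate number as a block, and 0 to 13 when single arrays were left out, while the genes called in all went from 21 to 76, 1125, 642, 4, and 2 to 1228. Over the fits without 1 array, the members lower at an unadjusted p under 0.05 numbered 12 to 23, those with all preconditioned arrays below all intact arrays 19 to 32 (15.4% to 23.1% of all genes), and the further pathway genes lower at an unadjusted p under 0.05 (48 as reported) 29 to 59. That last set of alternatives was chosen after seeing the data. The median over the members kept its sign in every alternative run, from -0.39 without intact replicate 1 to -0.20 after quantile normalization again, and each of the 14 genes described in full stayed below 0. Replicate numbers did not pair the mice: the deviations of same-numbered arrays correlated at -0.06, -0.31 and -0.06 across genes, and with the block 17 members were lower at an unadjusted p under 0.05 and Plbd1 and Ctns had a limma adjusted p of 0.180.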
